A study of Homo sapiens with 16 samples.

Results

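Chromatin accessibility was followed in a window of chromosome 15 around IGF1R and a window of chromosome 11 around H19 and IGF2. The members are the regions of the 2 deposited ATAC-seq count tables that overlap chr15:99180000-99520000 (340 kb, called the IGF1R window) or chr11:2000000-2180000 (180 kb, called the H19/IGF2 window), in hg19. The table of the experiment labelled 6086 held 52 such regions among 56949, with 28 in the IGF1R window and 24 in the H19/IGF2 window. The table of the experiment labelled 6211 held 35 among 40844, with 18 in the IGF1R window and 17 in the H19/IGF2 window. The regions were taken by position alone, in windows chosen with earlier results of these data known, and every member passed the filter on low counts.

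The libraries came from Rh30, a human alveolar rhabdomyosarcoma cell line, in which PAX3-FOXO1, the fusion transcription factor of this tumour, carries an FKBP tag. dTAG47 is a degrader that brings FKBP-tagged proteins to the ubiquitin machinery, and ATAC-seq counts the cuts a transposase makes in open DNA. Experiment 6086 compared 2, 4 and 24 h of 500 nM dTAG47 with DMSO, the solvent control, and experiment 6211 compared 0.5, 1 and 2 h of 500 nM dTAG47 with a DMSO group of its own. Each group had 2 libraries, 16 in all. The DMSO libraries carry the tagged fusion too, 1 cell line was used, and the length of the DMSO exposure is not in the labels. Nothing says that the libraries of a group came from separate cultures, so p-values measure the spread between these libraries, which may be technical. No value in these tables measures the fusion protein itself.

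IGF2 is a secreted growth factor, and IGF1R is the receptor tyrosine kinase through which it drives growth and survival by way of the PI3K and MAPK pathways. H19, a long non-coding RNA, and IGF2 are imprinted neighbours: a control region near H19 binds CTCF on the maternal copy and keeps distal enhancers from IGF2, so that H19 is made from the maternal and IGF2 from the paternal chromosome. Rhabdomyosarcomas are known for high IGF2 and for loss of this imprint, and IGF1R has been described as a target gene of PAX3-FOXO1. The read counts do not tell the parental copies apart.

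Both genes with an entry in the RefSeq promoter table (GRCh38.p14) are shown here, because their starts differ widely in base composition; CG steps, the sites of DNA methylation, are in capitals. The stretches are the 250 bases before each gene's start, chr15:98648289-98648538 on the plus strand for IGF1R and chr11:2001267-2001516 on the minus strand for H19, both in GRCh38.p14.
IGF1R: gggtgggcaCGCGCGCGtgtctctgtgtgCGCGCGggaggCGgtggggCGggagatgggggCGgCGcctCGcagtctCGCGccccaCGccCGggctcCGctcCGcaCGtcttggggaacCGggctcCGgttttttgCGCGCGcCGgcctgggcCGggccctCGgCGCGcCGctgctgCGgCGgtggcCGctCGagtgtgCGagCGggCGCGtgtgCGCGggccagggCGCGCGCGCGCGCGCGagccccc
H19: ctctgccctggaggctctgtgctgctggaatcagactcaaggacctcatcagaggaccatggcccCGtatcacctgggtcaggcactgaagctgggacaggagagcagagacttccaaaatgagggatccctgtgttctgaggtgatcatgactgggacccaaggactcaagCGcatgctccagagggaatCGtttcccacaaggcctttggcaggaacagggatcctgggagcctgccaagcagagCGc
The IGF1R stretch is 81.2% G or C and holds 48 CG steps, more than 99.7% of the 35116 promoters in the table, whose median is 11. The H19 stretch is 58% G or C and holds 4, with 29.3% of promoters holding fewer. The build differs from that of the count tables, so no region was laid on these sequences and which gene a region belongs to was not determined. In RefSeq's order along GRCh38, the genes around IGF1R include IRAIN, IGF1R, MIR4714 and PGPEP1L. Those around H19 and IGF2 include LINC01219, H19 with MIR675, IGF2 with MIR483, IGF2-AS, INS and TH, in that order. These stretches were picked by gene name, not by the windows' coordinates, and other entries in them are left out. By this order H19 lies towards the low-coordinate end of its window and IGF2 towards the high-coordinate end. Regions are named below by the distance of their centre from the low-coordinate end of their window.

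The members lay in clusters with long stretches between them that held no region. In 6086 the widest such stretches were 49.0 kb in the IGF1R window (chr15:99271194 to 99320227) and 49.8 kb in the H19/IGF2 window (chr11:2060983 to 2110829), and another of 37.4 kb ran from chr11:2011592 to 2048962. The 6086 regions were 117 to 890 bp wide in the IGF1R window and 102 to 2329 bp wide in the H19/IGF2 window, whereas those of 6211 were all 401 bp, so levels are compared only within a table. All 17 H19/IGF2 regions and 17 of the 18 IGF1R regions of 6211 overlapped a region of 6086.

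The unit of level is the CPM, a read count brought to a common library size with TMM factors, and, between regions, as CPM per kb of region. In 6086 DMSO libraries the median level was 33.9 CPM per kb in the IGF1R window and 29.6 in the H19/IGF2 window, against 33.6 over all regions. In 6211 DMSO libraries it was 45.5 and 52.1 CPM per kb, against 45.1 over all regions. Both windows were thus near the typical region of their table. The strongest IGF1R region in 6086 was chr15:99270856-99271194, 91 kb into the window, at 68.4 CPM per kb, and the strongest H19/IGF2 region was chr11:2000048-2002376, 1.2 kb in, at 79.5 CPM per kb. In 6211 the strongest were chr15:99329053-99329453 at 149.3 kb, with 96.1 CPM per kb, and chr11:2001014-2001414 at 1.2 kb, with 277 CPM per kb, a level above 99.5% of regions.

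Summed over a window, accessibility moved little. The 28 IGF1R regions of 6086 summed to 327 ± 2.08 CPM in DMSO, 316 ± 1.69 at 2 h, 327 ± 1.53 at 4 h and 332 ± 1.93 at 24 h (SD, n = 2 each). The 24 H19/IGF2 regions summed to 565 ± 19 CPM in DMSO, 578 ± 18.1 at 2 h, 582 ± 13.2 at 4 h and 607 ± 4.89 at 24 h. The IGF1R sum of 6211 was 361 ± 0.884 CPM in DMSO, 351 ± 6.96 at 0.5 h, 342 ± 8.85 at 1 h and 346 ± 5.28 at 2 h, and the H19/IGF2 sum was 489 ± 3.59 CPM in DMSO, 495 ± 2.07 at 0.5 h, 522 ± 16.7 at 1 h and 527 ± 0.201 at 2 h. The 2 h IGF1R sum lay below DMSO in every library of both experiments, and the 24 h and, in 6211, the 2 h H19/IGF2 sums lay above DMSO in every library. These sums were not tested. The H19/IGF2 region 1.2 kb in held 185 CPM of the DMSO sum in 6086 and 111 CPM of that in 6211. Its mean was below DMSO at every time, so the H19/IGF2 sums mix changes of opposite direction.

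In the IGF1R window, 2 regions of 6086 fell at 2 h, at 140.4 and 149.2 kb, and neither was lower than DMSO at 24 h. The region chr15:99328881-99329428, at 149.2 kb, had 26.6 and 26.0 CPM in DMSO, 19.1 and 20.0 at 2 h, 22.5 and 21.2 at 4 h, and 25.4 and 27.3 at 24 h (6086). Both 2 h libraries lay below all others, both 4 h libraries lay between the 2 h and the DMSO libraries, and the 24 h libraries spanned the DMSO values. It fell by 0.42 on the log2 scale at 2 h (SE 0.08, 0.745-fold, adjusted p 0.00021; quasi-likelihood test of edgeR, adjusted by Benjamini and Hochberg's method, as for every adjusted p here). At 4 h the change was -0.26 (SE 0.08, adjusted p 0.023) and at 24 h 0.01 (SE 0.07, adjusted p 0.97). Tested directly, the level at 24 h was higher than at 2 h by 0.43 (SE 0.07, adjusted p 2.0e-05). The 2 h call and the call of 24 h against 2 h held under all 10 alternatives, with adjusted p up to 0.018 at 2 h. The 4 h call was lost without DMSO A, 4 h A or 4 h B and with DESeq2 (adjusted p up to 0.26).

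The overlapping 6211 region, chr15:99329053-99329453 at 149.3 kb, passed the test at 2 h. It had 40.7 and 36.3 CPM in DMSO, 32.5 and 33.4 at 0.5 h, 30.1 and 32.9 at 1 h, and 29.4 and 31.4 at 2 h. All 6 dTAG47 libraries lay below both DMSO libraries. The change passed the test only at 2 h (-0.35, SE 0.10, adjusted p 0.032), with -0.23 (SE 0.10, adjusted p 0.69) at 0.5 h and -0.29 (SE 0.09, adjusted p 0.11) at 1 h. The 2 h call was lost without DMSO A, 2 h A or 2 h B, with DESeq2 and with a fit of the compared groups alone (adjusted p up to 0.28).

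Of 3 nearby regions named after their values were seen, all below DMSO at 2 h in 6086, 1 passed the test at that time. At chr15:99320227-99320487, 140.4 kb in, the libraries held 13.8 and 13.5 CPM in DMSO, 10.1 and 11.3 at 2 h, 12.0 and 13.4 at 4 h, and 14.8 and 14.4 at 24 h. The 2 h libraries were the lowest and the 24 h libraries the highest. It fell by 0.35 at 2 h (SE 0.10, adjusted p 0.025), a call lost without DMSO A, DMSO B or 2 h A and with DESeq2 (adjusted p up to 0.34). Its 24 h level exceeded its 2 h level by 0.45 (SE 0.09, adjusted p 0.00023, held under all 10 alternatives). At chr15:99322892-99323300, 143.1 kb in, the 2 h change of -0.20 did not pass (adjusted p 0.23), while 24 h was above 2 h by 0.28 (SE 0.08, adjusted p 0.0063), a call lost without 2 h A or 24 h B and with DESeq2 (adjusted p up to 0.082). The region chr15:99342819-99342969, 162.9 kb in, had 6.27 and 5.83 CPM in DMSO, 4.77 and 4.43 at 2 h, 5.03 and 4.44 at 4 h, and 4.93 and 5.86 at 24 h. Its 2 h and 4 h libraries lay below both DMSO libraries, but its changes of -0.39 at 2 h (SE 0.14, adjusted p 0.12) and -0.35 at 4 h (SE 0.14, adjusted p 0.15) did not pass. The 6211 partner of the 140.4 kb region, chr15:99320135-99320535, had 21.3 and 19 CPM at 2 h, against 23.1 and 21.3 CPM in DMSO. These libraries met at 21.3 CPM, and the change was -0.14 (SE 0.12, adjusted p 0.55). Not all regions nearby were lower. Next to the 162.9 kb region, the 6086 regions at 164, 164.3 and 164.7 kb changed by -0.06, 0.04 and -0.15 at 2 h (adjusted p 0.83, 0.96 and 0.63). The 6211 regions at 164 and 164.7 kb changed by -0.22 and 0.27 (adjusted p 0.33 and 0.34).

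**Figure D1:**
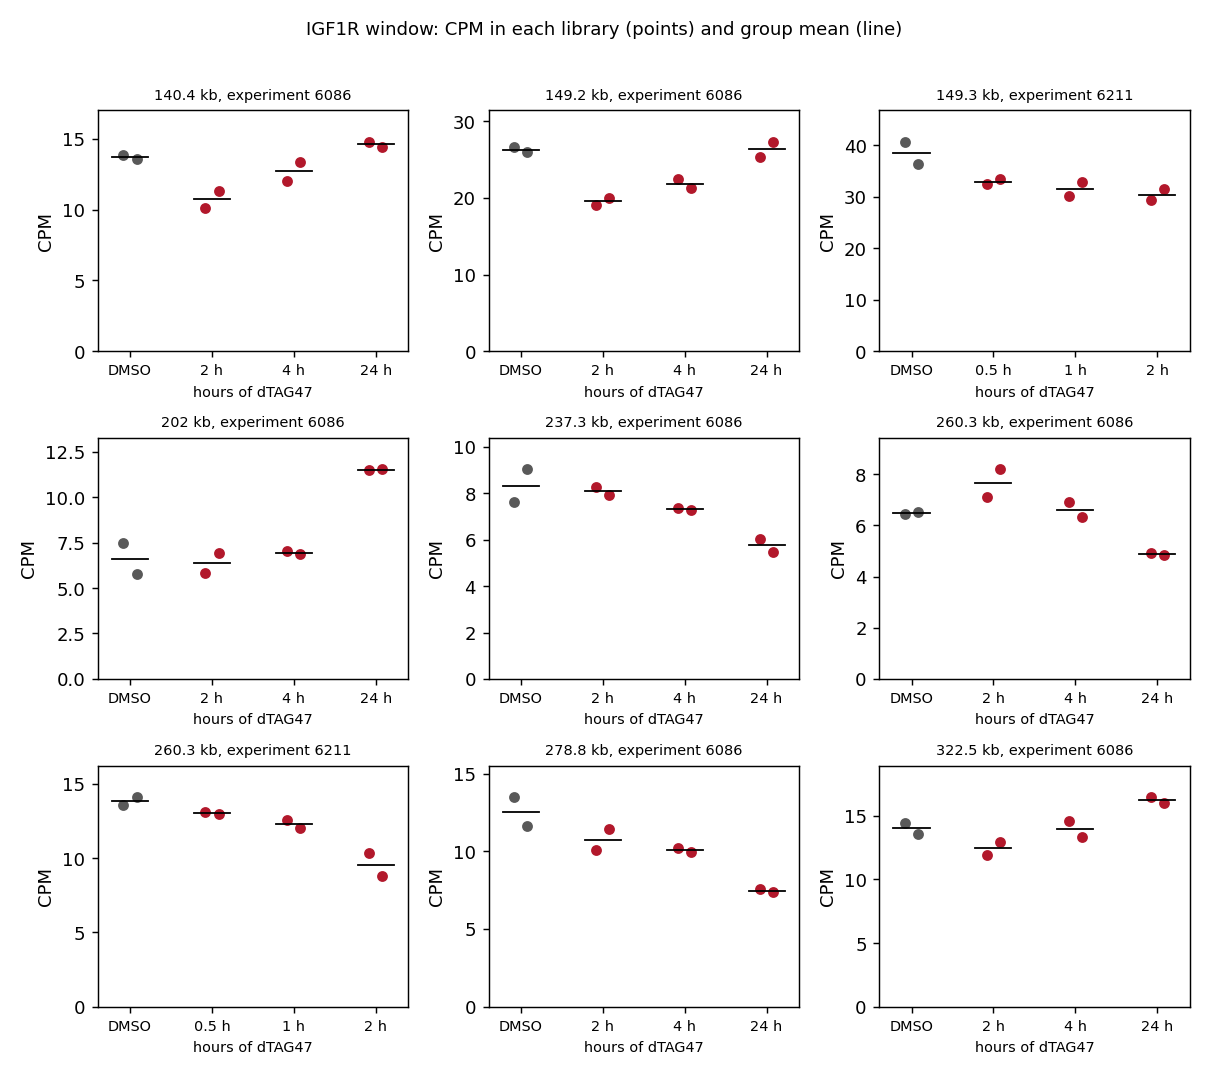
Normalised reads (CPM, y axis from 0) in each library of 7 IGF1R positions, those with an adjusted p under 0.001 in any 6086 comparison, with the 6211 regions called there, by hours of dTAG47 (DMSO at the low end); points are libraries (n = 2 per group), lines group means, and panel titles give kb into the window and the experiment. At 149.2 kb the 2 h libraries (19.1 and 20.0 CPM) are the lowest and the 24 h libraries (25.4 and 27.3 CPM) are back among the DMSO values, while at 202 kb only the 24 h libraries (both 11.5 CPM) stand above the rest.

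As counts, 2 of 28 IGF1R regions were lower at 2 h in 6086 (7.14%), against 4.25% of all tested regions, and none was higher, against 0.978%. In 6211, 2 of 18 were lower at 2 h (11.1%), against 4.92% of all regions, and none was higher, against 1.97%. At 4 h the 149.2 kb region was the only 1 of 28 called lower, against 5.44%, and none was called higher, against 1.75%. At an unadjusted p under 0.05, in either direction, there were 7 regions at 2 h and 3 at 4 h in 6086, and 2 at 2 h in 6211. Over all tested regions there were 9324 at 2 h and 10085 at 4 h of 56945 in 6086, and 8284 of 40844 at 2 h in 6211. The authors' deposited table, at an adjusted p under 0.05, held 1 lower IGF1R region at 2 h in 6086 and none at 4 h or at 2 h in 6211, and no higher one at those times. Of all 56949 regions in 6086 it held 1328 lower and 70 higher at 2 h, and 1917 lower and 186 higher at 4 h. Of all 40844 in 6211 it held 1186 lower and 155 higher at 2 h. With 1 or 2 regions called per comparison, nothing particular to the window is read from these shares.

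At 0.5 h and 1 h in 6211 none of the 18 IGF1R regions was called in either direction by edgeR, and none in the authors' deposited table. Over all regions edgeR called 0.00735% lower and 0% higher at 0.5 h, and 2.47% lower and 0.22% higher at 1 h. The deposited table held 2 lower and 0 higher of 40844 at 0.5 h, and 360 lower and 6 higher at 1 h. With edgeR, 3 IGF1R regions at 0.5 h and 4 at 1 h had an unadjusted p under 0.05, against 2723 and 6687 of all 40844. No IGF1R region differed between 2 h and 0.5 h, where 1.28% of all regions were lower and 0.147% higher at 2 h. For that comparison 1 IGF1R region had an unadjusted p under 0.05, against 4985 of all 40844. The median change over the 18 regions was -0.01 at 0.5 h, -0.10 at 1 h and -0.04 at 2 h. Over the 74 regions within 2 Mb on either side it was 0.01, -0.05 and -0.09 at the same hours, and over all regions -0.00, 0.01 and 0.00.

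By 24 h other IGF1R regions had moved, in both directions. A region in the middle of the window opened and a run of regions 237 to 279 kb in closed. In all, 5 of 28 were lower than DMSO (17.9%) and 4 higher (14.3%), against 18.6% and 13.6% of all tested regions, so the shares were near the background. The median change of the window was 0.05, against -0.06 over the 98 regions within 2 Mb, of which 26 were lower and 12 higher, and -0.00 over all regions. The authors' deposited table held 2 lower and 2 higher IGF1R regions at 24 h, against 7125 lower and 4198 higher of all 56949 regions.

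The largest gain was at chr15:99381850-99382180, 202 kb in. It had 7.45 and 5.75 CPM in DMSO, 5.85 and 6.92 at 2 h, 7.03 and 6.87 at 4 h, and 11.5 in both libraries at 24 h. The 24 h libraries stood apart from all 6 others, which overlapped among themselves. It rose by 0.83 on the log2 scale (SE 0.11, 1.78-fold, adjusted p 4.5e-07), with a 2 h change of -0.02 and a 4 h change of 0.10. The level at 24 h was above that at 2 h by 0.85 (SE 0.11, adjusted p 2.8e-07), and both calls held under all 10 alternatives. No 6211 region matched it, and its DMSO level per kb was low, at percentile 8.56 of the 6086 table.

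The largest loss was at chr15:99458613-99458963, 278.8 kb in. It had 13.5 and 11.6 CPM in DMSO, 10.1 and 11.4 at 2 h, 10.2 and 9.95 at 4 h, and 7.56 and 7.38 at 24 h. All 6 dTAG47 libraries were below both DMSO libraries and the 24 h libraries were the lowest. It fell by 0.73 at 24 h (SE 0.10, 0.601-fold, adjusted p 7.2e-07), while -0.21 at 2 h (adjusted p 0.30) and -0.30 at 4 h (SE 0.10, adjusted p 0.070) did not pass. Its 6211 partner, chr15:99458559-99458959, had 15.7 and 13.8 CPM at 2 h, against 17.1 and 16.7 CPM in DMSO. That change of -0.19 did not pass either.

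The region chr15:99417145-99417378, 237.3 kb in, had 7.62 and 9.04 CPM in DMSO, 8.26 and 7.93 at 2 h, 7.37 and 7.27 at 4 h, and 6.05 and 5.48 at 24 h. The 24 h libraries were the lowest and the 2 h libraries lay within the DMSO range. It fell by 0.55 at 24 h (SE 0.12, 0.684-fold, adjusted p 0.00034) and was lower at 24 h than at 2 h by a log2 change of -0.49 (SE 0.12, adjusted p 0.0012). Both calls held under all 10 alternatives, with adjusted p up to 0.048 against DMSO. Its 6211 partner, chr15:99417046-99417446, had 11.6 and 12.0 CPM at 2 h, against 11.5 and 11 CPM in DMSO.

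Between these, chr15:99440205-99440473 at 260.3 kb had 6.44 and 6.53 CPM in DMSO, 7.10 and 8.19 at 2 h, 6.90 and 6.31 at 4 h, and 4.93 and 4.85 at 24 h. The 2 h libraries were the highest and the 24 h libraries the lowest. It fell by 0.41 at 24 h against DMSO (SE 0.13, adjusted p 0.012), a call lost without DMSO B or 24 h B and with DESeq2 (adjusted p up to 0.12), and its 24 h level was below its 2 h level by a log2 change of -0.64 (SE 0.12, adjusted p 7.4e-05, held under all 10 alternatives). At 2 h it changed by 0.23 (SE 0.12, adjusted p 0.35). In 6211 the matched region, chr15:99440148-99440548, had 13.6 and 14.1 CPM in DMSO, 13.1 and 13.0 at 0.5 h, 12.5 and 12.0 at 1 h, and 10.3 and 8.79 at 2 h. All dTAG47 libraries lay below DMSO there, and the 2 h libraries were the lowest. It fell by 0.53 at 2 h (SE 0.14, 0.694-fold, adjusted p 0.023), a call lost without DMSO A, DMSO B or 2 h B, with DESeq2 and with a fit of the compared groups alone (adjusted p up to 0.26).

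Towards the high-coordinate end of the window, gains and losses at 24 h lay side by side. The region chr15:99498620-99498822, 318.7 kb in, had 7.23 and 7.73 CPM at 24 h, against 5.88 and 5.12 CPM in DMSO, and rose by 0.46 (SE 0.13, adjusted p 0.0044), a call lost without DMSO B and with DESeq2 (adjusted p up to 0.099). Its neighbour chr15:99497811-99497968 at 317.9 kb, named after its values were seen, had 4.08 and 3.49 CPM at 24 h, against 5.6 and 5.08 CPM in DMSO, and fell by 0.49 (SE 0.14, adjusted p 0.0056), a call lost without 24 h B and with DESeq2 (adjusted p up to 0.10). In neither did the 24 h and DMSO libraries overlap. The region chr15:99509387-99509826, 329.6 kb in, had 15.7 and 16.8 CPM at 24 h, against 12.1 and 12.4 CPM in DMSO, and rose by 0.40 (SE 0.10, 1.32-fold, adjusted p 0.0012) under all 10 alternatives. Its 6211 partner, chr15:99509489-99509889, had 15.5 and 13.8 CPM at 2 h, against 16 and 14.5 CPM in DMSO, with overlapping libraries.

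A second pair of adjacent regions with opposite calls lay 82 kb in, both named after their values were seen. The region chr15:99261721-99262246 had 14.3 and 15.4 CPM at 24 h, against 19.2 and 16.7 CPM in DMSO, and fell by 0.26 (SE 0.09, adjusted p 0.020). The region chr15:99262449-99262621, at 82.5 kb, had 4.90 and 5.42 CPM at 24 h, against 4.09 and 3.68 CPM in DMSO, and rose by 0.42 (SE 0.14, adjusted p 0.021). Neither pair of groups overlapped. The first call was lost without DMSO A (a change of -0.17) or 24 h A and with DESeq2 (adjusted p up to 0.23), and the other without DMSO B or 24 h B and with DESeq2 (adjusted p up to 0.19).

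The regions at the low-coordinate end, the side on which IGF1R starts, were not called at any time. The widest, chr15:99190273-99191162 at 10.7 kb (named after its values were seen), had 30.1 and 38.8 CPM in DMSO, 36.3 and 34.5 at 2 h, 33.4 and 37.8 at 4 h, and 34.3 and 30.5 at 24 h. The DMSO libraries spanned all 6 others, and the changes were 0.02, 0.03 and -0.11 (SE 0.08 each, adjusted p 0.94, 0.91 and 0.35) at 2, 4 and 24 h. In 6211 the region chr15:99191469-99191869 at 11.7 kb, also named after its values were seen, had 6.65 and 10.3 CPM in DMSO, 11.5 and 9.98 at 0.5 h, 12.0 and 12.2 at 1 h, and 9.22 and 10.3 at 2 h. Its 1 h libraries lay above both DMSO libraries, which differed from each other more than any other group's, and its 1 h change of 0.54 (SE 0.17, 1.46-fold, adjusted p 0.084), the highest of the IGF1R regions at that time, did not pass. The region with the most reads per kb, chr15:99270856-99271194 at 91 kb, had 21.7 and 24.7 CPM in DMSO, 26.1 and 23.1 at 2 h, 26.9 and 23.6 at 4 h, and 22.9 and 23.9 at 24 h. Every group overlapped DMSO there, and its changes were 0.07, 0.11 and -0.00 (SE 0.08 each, adjusted p 0.73, 0.55 and 1). Its 6211 partner, chr15:99270814-99271214, had 29.7 and 33.8 CPM at 2 h, against 31.9 and 32.6 CPM in DMSO, and overlapped as well.

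**Figure D2:**
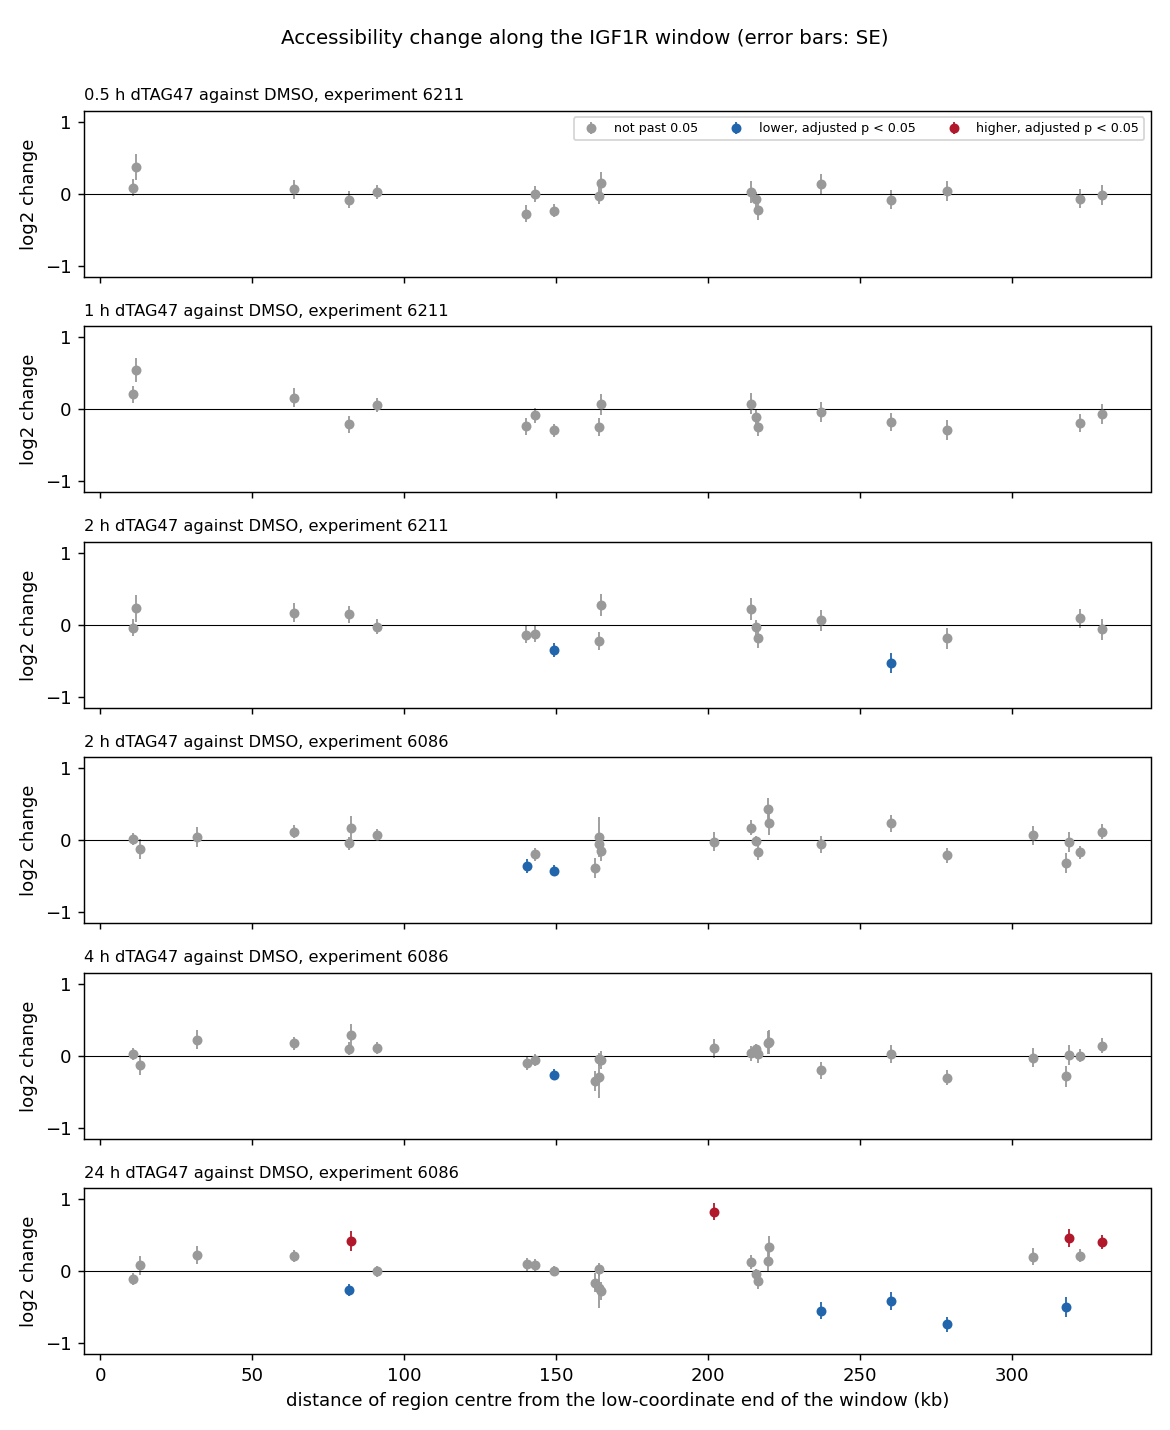
Log2 change against DMSO (y axis, bars are SE) of every IGF1R region by its distance from the low-coordinate end of the window (x axis, kb), 1 panel per time, for 0.5, 1 and 2 h of 6211 (18 regions) and 2, 4 and 24 h of 6086 (28 regions); blue and red mark regions called lower and higher at an adjusted p under 0.05. The calls at 2 and 4 h are all blue and lie 140 to 260 kb in, and at 24 h there are 5 blue and 4 red regions, with the 202 kb region highest at 0.83.

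Against 2 h, the IGF1R window at 24 h held 4 lower and 7 higher regions of 28 (14.3% and 25%), against 17.6% lower and 12.8% higher of all tested regions. The higher ones were the regions at 140.4, 143.1, 149.2, 202, 318.7, 322.5 and 329.6 kb. At 322.5 kb (chr15:99502192-99502764, named after its values were seen) the level was 16.5 and 16 CPM at 24 h, against 11.9 and 12.9 CPM at 2 h, a change of 0.39 (SE 0.09, adjusted p 0.00072). Both regions of the window that were lower than DMSO at 2 h in 6086 were higher at 24 h than at 2 h, and neither was lower than DMSO at 24 h. Of the 2418 regions of the whole table that were lower at 2 h, 302 (12.5%) were higher at 24 h than at 2 h and 2072 (85.7%) were still lower than DMSO at 24 h. Those comparisons share the 2 h or the DMSO libraries, and with 2 regions nothing particular to the window can be read from them.

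In the H19/IGF2 window every call against DMSO was a gain. No region was lower than DMSO at any time, in either experiment, by edgeR or in the authors' deposited table. The regions at 9.7 and 149 kb, near opposite ends of the window, were higher in both experiments by 2 h, and at 24 h regions at 4.5, 160.6 and 171.5 kb were higher too. The background had calls in both directions, given with the counts below.

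The region chr11:2009162-2010222, 9.7 kb in and on the H19 side, had 37.9 and 37.3 CPM in DMSO, 45.4 and 41.8 at 2 h, 45.2 and 46.1 at 4 h, and 56.8 and 57.4 at 24 h. All 6 dTAG47 libraries lay above both DMSO libraries, with the 24 h libraries highest. It rose by 0.22 at 2 h (SE 0.06, adjusted p 0.027), by 0.28 at 4 h (SE 0.06, adjusted p 0.0015) and by 0.60 at 24 h (SE 0.06, 1.52-fold, adjusted p 2.7e-10). The level at 24 h was above that at 2 h by 0.39 (SE 0.06, adjusted p 1.4e-06). The calls at 4 and 24 h held under all 10 alternatives, whereas the 2 h call was lost without DMSO A, DMSO B or 2 h A, with DESeq2 and with a fit of the compared groups alone (adjusted p up to 0.43).

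In 6211 the region inside it, chr11:2009248-2009648 at 9.4 kb, had 32.7 and 33.5 CPM in DMSO, 33.1 and 37.3 at 0.5 h, 36.8 and 39.8 at 1 h, and 42.4 and 41.3 at 2 h. The 0.5 h libraries overlapped DMSO, and those of 1 and 2 h did not. It rose by 0.34 at 2 h (SE 0.09, 1.27-fold, adjusted p 0.028), with 0.09 at 0.5 h (SE 0.10, adjusted p 0.91) and 0.21 at 1 h (SE 0.09, adjusted p 0.24). The call was lost without DMSO A, 2 h A or 2 h B, with DESeq2 and with a fit of the compared groups alone (adjusted p up to 0.15).

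The region chr11:2148858-2150040, 149.4 kb in and on the IGF2 side, had 19.7 and 22.6 CPM in DMSO, 24.6 and 27.1 at 2 h, 24.1 and 26.3 at 4 h, and 30.1 and 30.4 at 24 h. Every dTAG47 library was above both DMSO libraries. It rose by 0.28 at 2 h (SE 0.08, adjusted p 0.033) and by 0.51 at 24 h (SE 0.08, 1.42-fold, adjusted p 2.2e-06), while 0.24 at 4 h did not pass (SE 0.08, adjusted p 0.059). The 24 h call held under all 10 alternatives. The 2 h call was lost without DMSO A or 2 h B, with DESeq2 and with a fit of the compared groups alone (adjusted p up to 0.35), and at 4 h the region passed without DMSO B.

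The largest change of either window in 6211 was at the 401 bp region inside it. At chr11:2149358-2149758, 149.6 kb in, the libraries held 8.58 and 11.4 CPM in DMSO, 14.7 and 12.9 at 0.5 h, 14.5 and 13.7 at 1 h, and 19.5 and 19.3 at 2 h. All dTAG47 libraries were above DMSO and those of 2 h stood apart. It rose by 0.97 at 2 h (SE 0.14, 1.96-fold, adjusted p 7.6e-05), a call held under all 10 alternatives with adjusted p up to 0.0048. The changes of 0.49 at 0.5 h (SE 0.15, adjusted p 0.41) and 0.51 at 1 h (SE 0.14, adjusted p 0.059) did not pass, nor did the difference of 0.49 between 2 h and 0.5 h (SE 0.14, adjusted p 0.080). The DMSO level per kb was low here, at percentile 8.48 of the 6211 table, and at percentile 5.72 of the 6086 table in the wider region. The 2 h changes of 0.97 in 6211 and 0.28 in 6086 were not tested against each other.

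The region chr11:2003980-2004968, 4.5 kb in, had 34.5 and 40.3 CPM in DMSO, 44.4 and 42.2 at 2 h, 42.9 and 44.3 at 4 h, and 50.4 and 52.0 at 24 h. All 6 dTAG47 libraries lay above DMSO. It rose by 0.44 at 24 h (SE 0.06, 1.36-fold, adjusted p 8.5e-07, held under all 10 alternatives) and by 0.21 at 4 h (SE 0.07, adjusted p 0.043), and its 0.20 at 2 h (SE 0.07, adjusted p 0.074) did not pass. The 4 h call was lost without DMSO A, 4 h A or 4 h B, with DESeq2, with a replicate block (adjusted p 0.052) and with a fit of the compared groups alone (adjusted p up to 0.45), and the 4 h change was 0.11 without DMSO A and 0.33 without DMSO B. The overlapping 6211 region, chr11:2004181-2004581, had 56.0 and 54.4 CPM at 2 h, against 45.4 and 52.4 CPM in DMSO. The groups did not overlap, but the change of 0.18 (SE 0.09, adjusted p 0.25) did not pass.

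Further gains at 24 h lay on the IGF2 side. The region chr11:2160548-2160721, 160.6 kb in and among the weakest, had 5.52 and 5.29 CPM at 24 h, against 2.69 and 4.26 CPM in DMSO, and rose by 0.59 (SE 0.16, 1.5-fold, adjusted p 0.0048), a call lost without DMSO A and with DESeq2 (adjusted p up to 0.13). The size of its change rests on the DMSO libraries, with 0.34 without DMSO A and 1.01 without DMSO B. The region chr11:2171082-2171891 at 171.5 kb, named after its values were seen, had 22.3 and 20.9 CPM at 24 h, against 18.6 and 17.1 CPM in DMSO, and rose by 0.28 (SE 0.08, adjusted p 0.0050), a call lost without DMSO B or 24 h A and with DESeq2 (adjusted p up to 0.088). Neither group pair overlapped.

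The most accessible region of the window passed no test. The region chr11:2000048-2002376, 1.2 kb in, had 184 and 186 CPM in DMSO, 176 and 170 at 2 h, 173 and 173 at 4 h, and 180 and 179 at 24 h. All dTAG47 libraries were below DMSO, but the changes of -0.09, -0.10 and -0.04 at 2, 4 and 24 h did not pass (SE 0.04 each, adjusted p 0.23, 0.19 and 0.46). The 6211 region inside it, chr11:2001014-2001414, had 102 and 93.9 CPM at 2 h, against 117 and 105 CPM in DMSO, without overlap and with a change of -0.18 (SE 0.07, adjusted p 0.16).

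**Figure D3:**
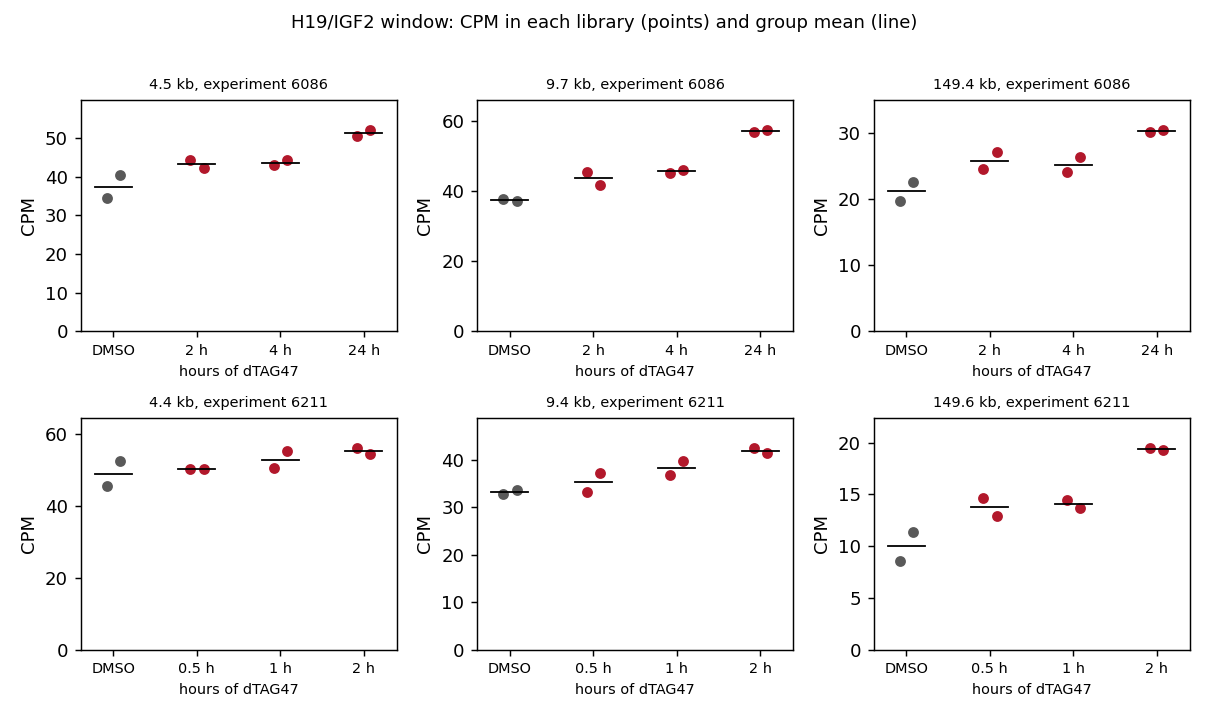
Normalised reads (CPM, y axis from 0) in each library of the 3 H19/IGF2 positions with an adjusted p under 0.001 in 6086 (upper row) and of the 6211 regions inside them (lower row), by hours of dTAG47 (DMSO at the low end); points are libraries (n = 2 per group), lines group means. At 9.7 kb the 24 h libraries (56.8 and 57.4 CPM) and at 149.6 kb the 2 h libraries of 6211 (19.5 and 19.3 CPM) are the highest, and DMSO has the lowest mean in every panel.

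As counts, 2 of 24 H19/IGF2 regions of 6086 were higher at 2 h (8.33%), against 0.978% of all tested regions, and 2 of 24 at 4 h, against 1.75%. In 6211, 2 of 17 were higher at 2 h (11.8%), against 1.97% of all regions. None was lower, against 4.25%, 5.44% and 4.92% in those comparisons. At 24 h 5 of 24 were higher (20.8%), against 13.6% of all regions, and 0 were lower, against 18.6%. The 2 h calls of 6211 lay inside the regions called at 2 h in 6086, at 9.7 and 149.4 kb. Both 6086 calls at 2 h were lost with DESeq2 and with a fit of the compared groups alone. With 2 to 5 regions called per comparison, nothing particular to the window is read from these shares. An unadjusted p under 0.05, in either direction, was found in 6086 for 4 regions at 2 h, 6 at 4 h and 8 at 24 h, and in 6211 for 7 at 2 h. Over all tested regions it was found for 9324, 10085 and 22809 of 56945 in 6086, and for 8284 of 40844 in 6211. The authors' deposited table held 0, 1 and 3 higher regions at 2, 4 and 24 h in 6086 and 1 at 2 h in 6211. Over all regions it held 70, 186 and 4198 higher of 56949 in 6086, and 155 higher of 40844 in 6211. At 0.5 and 1 h none of the 17 regions was called by edgeR (2 and 4 at an unadjusted p under 0.05) or in the authors' deposited table. None differed between 2 h and 0.5 h (4 at an unadjusted p under 0.05). Over all 40844 regions these unadjusted counts were 2723 at 0.5 h, 6687 at 1 h and 4985 for 2 h against 0.5 h.

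The 24 h calls fell on both sides of the window's middle, chr11:2090000. Of the 8 regions on the H19 side, 2 were higher (25%), with a median change of 0.18. Of the 16 on the IGF2 side, 3 were higher (18.8%), with a median of -0.00. The share over all regions was 13.6%. At 2 h in 6211 each side had 1 higher region, of 6 (16.7%) and 11 (9.09%), against 1.97% of all regions. With 1 to 3 regions called per side, nothing is read from this split. Directly against 2 h, 4 of 24 regions were higher at 24 h (16.7%) and 1 was lower (4.17%), against 12.8% and 17.6% of all regions. The lower one, chr11:2118627-2119239 at 118.9 kb (named after its values were seen), had 31.3 and 30.2 CPM at 24 h, against 35.7 and 33.9 CPM at 2 h, a change of -0.18 (SE 0.06, adjusted p 0.034) that was lost in 6 of 10 alternatives (adjusted p up to 0.26), and its change against DMSO was -0.13 (adjusted p 0.12).

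Median changes above 0 were also found around the window. In 6211 the median change of the 17 regions was 0.04 at 0.5 h, 0.13 at 1 h and 0.16 at 2 h, and that of the 155 regions within 2 Mb on either side was 0.05, 0.14 and 0.12. Of those 155 regions, 124 were above 0 at 1 h and 113 at 2 h, and the calls at 2 h were 4 lower and 10 higher. In 6086 the window's medians were 0.09, 0.10 and 0.07 at 2, 4 and 24 h, against 0.04, 0.03 and 0.04 over 200 regions within 2 Mb, while over all regions it was 0.00, 0.01 and -0.00. Of the 200 flanking regions, 5 were called lower and 4 higher at 2 h, 6 lower and 3 higher at 4 h, and 31 lower and 27 higher at 24 h. The median log2 difference of library B over library A in 6086 across this window was 0.10 in DMSO, -0.09 at 2 h, 0.07 at 4 h and -0.03 at 24 h. Across the IGF1R window it was -0.05, 0.05, -0.02 and -0.01, and over all regions -0.01 to 0.01. A median over 24 regions varies more than one over the whole table, so these values do not show that this window's libraries were unusual. The part of the library differences and of the shifts around the window in the gains was not tested.

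**Figure D4:**
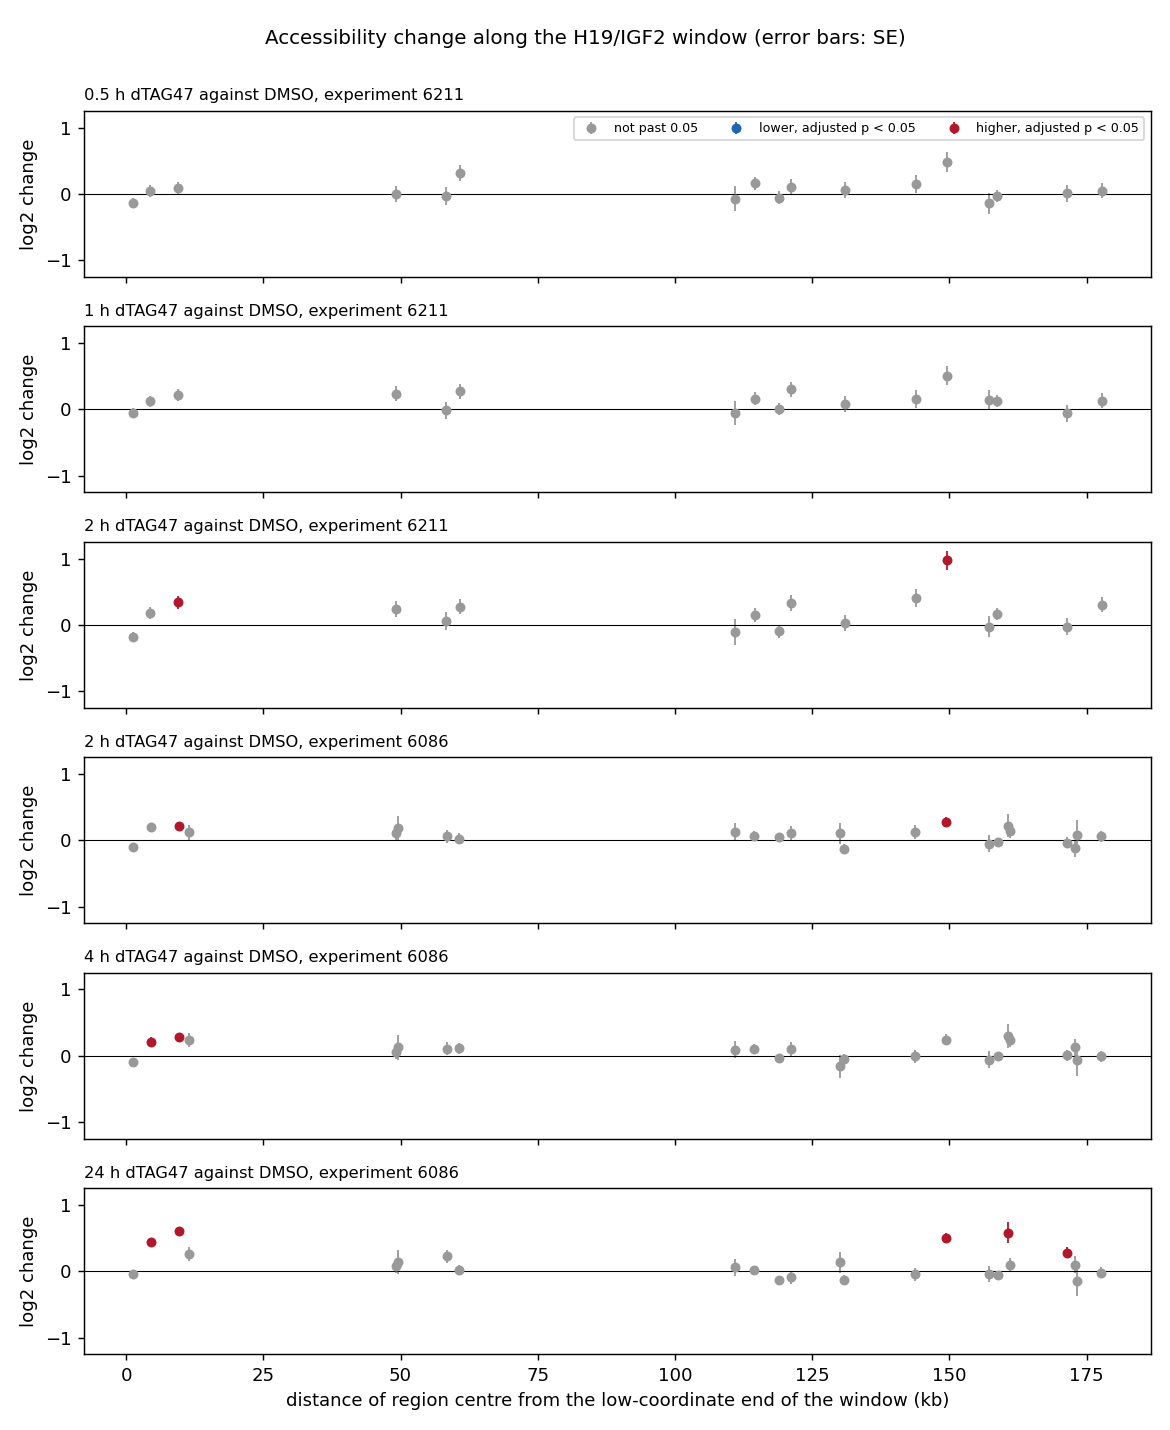
Log2 change against DMSO (y axis, bars are SE) of every H19/IGF2 region by its distance from the low-coordinate end of the window (x axis, kb), 1 panel per time, for 0.5, 1 and 2 h of 6211 (17 regions) and 2, 4 and 24 h of 6086 (24 regions); red marks regions called higher at an adjusted p under 0.05, and no region was called lower. Red points sit at 9.4 or 9.7 kb and at 149 kb in both 2 h panels and number 5 at 24 h.

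Because 2 h of dTAG47 was measured in both experiments, each with its own DMSO libraries, the changes could be set against each other. Of the members, 25 had a single partner in the other table by 50% reciprocal overlap, 16 in the IGF1R window and 9 in the H19/IGF2 window, and 17 of the 25 had the same sign. The sign was shared by 9 of 16 IGF1R pairs (56.2%, with 7 below 0 in both), by 8 of 9 H19/IGF2 pairs (88.9%) and by 67.1% of all 29639 matched regions. The H19/IGF2 regions at 4.5, 9.7 and 149.4 kb were too wide in 6086 to be matched to their 401 bp counterparts and are not among the 25. No member differed between the experiments in edgeR's interaction test, and neither did any of the matched regions (0%), of which 1539 had an unadjusted p under 0.05. The widest gap was at 260.3 kb of the IGF1R window, where the 2 h change was -0.53 in 6211 and 0.23 in 6086, a difference of -0.77 (SE 0.19, unadjusted p 0.00057, adjusted p 0.90). That region's call at 2 h therefore rests on 6211 alone.

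**Figure D5:**
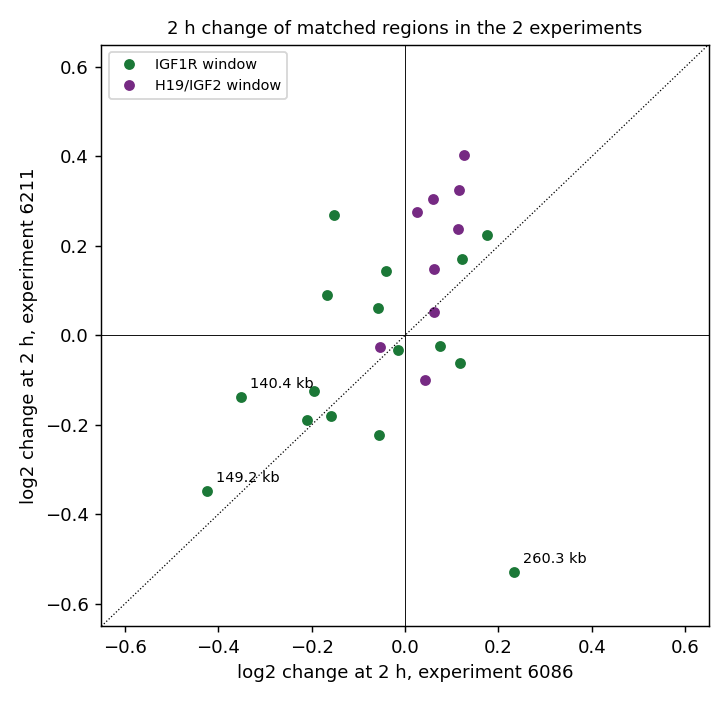
Log2 change at 2 h of dTAG47 against DMSO of the 25 matched regions, in 6211 (y axis) and 6086 (x axis), coloured by window, with a dotted line of equal change. The 149.2 kb IGF1R region is low in both (-0.35 and -0.42), and the 260.3 kb region lies farthest from the line (-0.53 and 0.23).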

How the data were processed

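The counts are raw reads per region, as the authors deposited them, and summed to 18038062 to 31308682 per library in 6086 and 9934147 to 18275976 in 6211, so shallower 6211 counts carry more counting error. The submitters' processing notes list the builds hg19 and dm3 and the tools Bowtie2, DESeq2, DiffBind, deepTools, Genrich 0.6.1 and Trimmomatic 0.32; which step used which, the transposase shift and the treatment of duplicates are not given in the sources used here. Coordinates are taken as hg19. The authors' deposited tables also give log2 fold changes and p-values (DESeq2-style columns, per the file headers), which were used only for the counts credited to them.

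Columns were tied to groups by treatment and time; the letters A and B could not be tied to the labels' replicate numbers. Replicate counts differed by more than sampling noise (chi-square per degree of freedom 1.34 to 2.66). Counts of all regions were fitted per experiment with edgeR 4.0.16 in R 4.3.3 (TMM, filterByExpr, quasi-likelihood, all 8 libraries, 4 residual degrees of freedom), which left 56945 of 56949 regions in 6086 and all in 6211. A region was called where its p, adjusted over all regions by Benjamini-Hochberg, was under 0.05, and the SE is the log2 change divided by the square root of F. Biological coefficients of variation were 3.48% (6086) and 5.96% (6211). The code was tested on simulated data, where recovery was required only for changes larger than any reported here. Figures were drawn with Matplotlib 3.10.9 in Python 3.11.15.

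Alternatives were DESeq2 1.42.0, library size only, median-ratio factors, no filter, the compared groups alone, a block by column letter and leaving out each library, which makes 10 per comparison. Named regions are, per window and experiment, the one with most DMSO reads per kb, the called ones with the smallest adjusted p (up to 6 for IGF1R, 4 for H19/IGF2) and their matched partners. The members and lists were chosen with earlier results of these data known. The rest of the IGF pathway was not placed, since no hg19 annotation was used here.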

Additional observations from a re-analysis of the deposited data

Results flagged for a closer look

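Between 24 h and 2 h of dTAG47 in 6086, the change differed at 16 regions by a direct test of the 2 times (edgeR, adjusted p under 0.05), and those results are listed for a closer look. Of the 52 members, 5 were lower (9.62%) and 11 higher (21.2%), against 17.6% and 12.8% of all tested regions. In the IGF1R window the log2 change of 24 h over 2 h was 0.45 at 140.4 kb, 0.28 at 143.1 kb and 0.43 at 149.2 kb. It was 0.85 at 202 kb, 0.48 at 318.7 kb, 0.39 at 322.5 kb and 0.29 at 329.6 kb. It was -0.22 at 82 kb, -0.49 at 237.3 kb, -0.64 at 260.3 kb and -0.53 at 278.8 kb.

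In the H19/IGF2 window it was 0.24 at 4.5 kb, 0.39 at 9.7 kb, 0.23 at 149.4 kb and 0.32 at 171.5 kb, and -0.18 at 118.9 kb. The calls at 82 and 118.9 kb were lost without any 1 of the 4 libraries compared (adjusted p up to 0.37 and 0.26). The call at 329.6 kb was lost without 2 h A, 2 h B or 24 h B (up to 0.14), that at 149.4 kb without 2 h A, 24 h A or 24 h B (up to 0.23), that at 143.1 kb without 2 h A or 24 h B (up to 0.082), and that at 4.5 kb without 2 h B (up to 0.060). With DESeq2 the calls at 82, 118.9, 143.1, 149.4 and 329.6 kb were lost as well, and those at 82 and 118.9 kb also with library size only. The call at 318.7 kb was lost with DESeq2 and no other alternative (0.060). The other 9 held under all 10 alternatives.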

How the results depend on the processing

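No called change reversed its direction under any alternative. With DESeq2 in place of edgeR, counts over both windows were 1 lower and 0 higher at 2 h in 6086 (2 and 2 with edgeR), 0 lower and 1 higher at 4 h (1 and 2), 2 lower and 5 higher at 24 h (5 and 9), 3 lower and 7 higher for 24 h against 2 h (5 and 11), and 0 lower and 1 higher at 2 h in 6211 (2 and 2). The DESeq2 counts against DMSO equal those of the authors' deposited table, which has DESeq2-style columns, so the 2 are not separate checks. Over all regions that table also held fewer: 1328 lower and 70 higher at 2 h in 6086 (2418 and 557 with edgeR), and 7125 and 4198 at 24 h (10611 and 7742). At 2 h in 6211 it held 1186 and 155 (2009 and 806). All-region counts under the other alternatives are not given, so the drops are not read as particular to these windows. With library size only, 3 were lower for 24 h against 2 h. With the compared groups alone, 0 were higher at 2 h and 1 at 4 h in 6086, 0 lower and 1 higher at 2 h in 6211, and 1 higher for 2 h against 0.5 h (0). The causes were not tested.

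Leaving out 1 library at a time, the counts in 6086 were 1 to 2 lower and 0 to 2 higher at 2 h, 0 to 2 and 1 to 4 at 4 h, 3 to 5 and 7 to 9 at 24 h, and 3 to 4 and 8 to 10 for 24 h against 2 h. In 6211 they were 0 to 1 lower and 0 to 2 higher at 1 h, and 0 to 1 and 1 to 2 at 2 h. Counts at 0.5 h, for 2 h against 0.5 h and in the interaction test stayed at 0, the last also at 80% overlap and with no filter.

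A replicate block by column letter moved no count by over 1.5 times; the 4 h call at 4.5 kb (chr11:2003980-2004968) was lost at an adjusted p of 0.052, the call of 24 h against 2 h at 82 kb was lost too, and the 4 h gain at 149.4 kb (chr11:2148858-2150040) passed. Among the named regions it changed no other call. Deviations of libraries with the same letter correlated at -0.14 to 0.15 in 6086 and -0.05 to 0.21 in 6211, over 6 group pairs each. Counting noise draws such values towards 0, so whether the letters pair libraries is not settled. Regions of few reads and 2 libraries per group limit what could be called; changes that did not pass are not shown to be absent.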
